A study of Rattus norvegicus with 4 samples.

Results

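The D-type cyclins and the inhibitors of their kinases were followed in the carotid body (CB), an oxygen sensor of the blood that sits where the common carotid divides and works through its glomus cells. The set was chosen by gene symbol and holds 9 genes, of which 8 had a row among the 32883 genes of the deposited table (Ccnd1, Ccnd2, Ccnd3, Cdkn1a, Cdkn1b, Cdkn2a, Cdkn2b and Cdkn2c). Cdkn2d is not analysed here. Poly(A)-selected RNA of whole CBs from Sprague Dawley rats was sequenced at day 5 (neonate) and day 21 (adult), with 2 libraries per age and 4 in all. Each library pooled 6 pups or 3 adult rats per the labels, while the methods of the study give other pool sizes and more replicates. The adults were littermates left to grow to day 21. No treatment is named for either age, the study included females and males, and no cell type was sorted. Library totals lay between 36286191 and 39476110 estimated counts.

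D-type cyclins are the regulatory subunits of Cdk4 and Cdk6. The active kinase phosphorylates the retinoblastoma protein Rb1 and its relatives, which frees E2f transcription factors to switch on the genes of S phase. The Ink4 inhibitors (encoded by Cdkn2a, Cdkn2b, Cdkn2c and Cdkn2d) bind Cdk4 and Cdk6 directly, and the Cip/Kip inhibitors (Cdkn1a, Cdkn1b and Cdkn1c) bind whole cyclin-kinase complexes, above all those of Cdk2. Several of these genes are also known to stay on in cells that have left the cell cycle.

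The members did not move as a group between neonates and adults. Cdkn2c, an Ink4 inhibitor, was 2.27-fold higher in neonates. Ccnd2 was 2.09-fold higher in adults, Cdkn1a, a Cip/Kip inhibitor, 1.71-fold higher in adults, and Ccnd1 1.16-fold higher in adults. Ccnd3, Cdkn1b and Cdkn2b did not pass the test, and Cdkn2a was too low to be tested. Levels are given as CPM, the count of a gene relative to the total of its library, and log2 fold changes are neonate over adult from the quasi-likelihood test of edgeR on TMM-normalized libraries, so that a positive value is a higher level in neonates. Adjusted p-values are by Benjamini-Hochberg over the 13843 genes tested.

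Of the 8 members with a row, 7 entered the test by reaching 1 CPM in 2 or more libraries. At an adjusted p under 0.05, 1 was higher in neonates and 3 were lower, while 31.2% of all genes tested were higher and 31.1% lower by the same rule. With a fold change of at least 2 required as well, 1 member was higher and 1 lower, against 7.68% and 13.2% of all genes. The shares among 7 genes are too coarse to be told from these. In CPM, the libraries of the 2 ages did not overlap for 6 of the 7, which held for 83.1% of all genes tested. After TMM normalization the count was again 6 of 7 (83.0% of all genes), with Ccnd3 now apart and Cdkn1b now overlapping. The median log2 fold change of the 7 was -0.22, beside -0.0029 for all genes tested, and their median absolute log2 fold change was 0.78, beside 0.49.

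**Figure D1:**
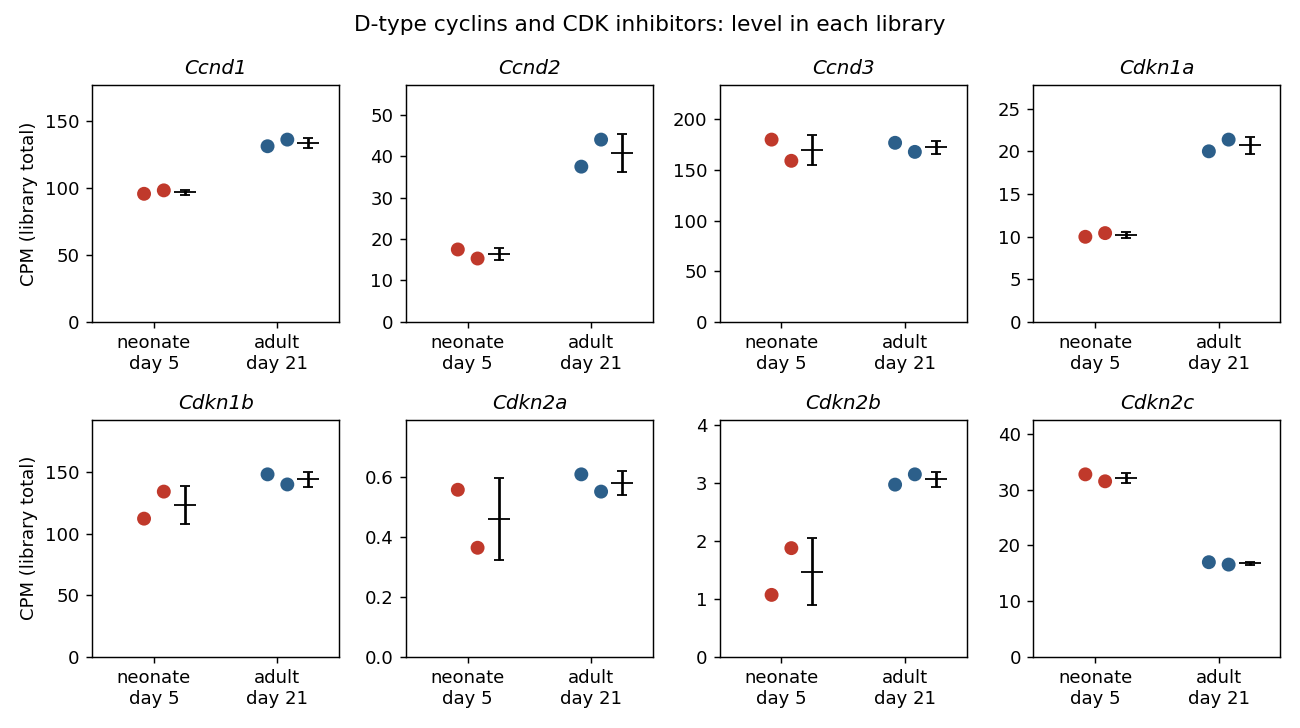
CPM of the 8 members in each library, with neonates (day 5) in red, adults (day 21) in blue, and the mean ± SD of the 2 libraries of an age in black beside the points. Cdkn2c was higher in both neonatal libraries, at 32.8 and 31.6 CPM, and Ccnd2, Cdkn1a and Ccnd1 were higher in both adult libraries.

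The upstream windows of the Cdk inhibitors that changed in opposite directions are shown for context, as RefSeq gives them for the assembly GRCr8. Each runs from 250 bases before to 50 bases after the annotated gene start and is printed 5′ to 3′ on the strand of the gene. Such windows were at hand for 7 of the 9 genes, and for neither Ccnd1 nor Ccnd2. Capitals mark matches to the p53 half-site, the 10-base element bound by a p53 dimer.

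Cdkn2c, chr5:129644842-129645141, minus strand: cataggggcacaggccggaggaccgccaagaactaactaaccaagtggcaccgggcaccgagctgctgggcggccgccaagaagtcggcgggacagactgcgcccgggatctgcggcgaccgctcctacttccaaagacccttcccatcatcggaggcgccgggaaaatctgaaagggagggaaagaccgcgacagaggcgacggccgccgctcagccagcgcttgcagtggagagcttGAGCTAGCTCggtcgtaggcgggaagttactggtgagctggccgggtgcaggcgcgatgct

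Cdkn1a, chr20:7150682-7150981, plus strand: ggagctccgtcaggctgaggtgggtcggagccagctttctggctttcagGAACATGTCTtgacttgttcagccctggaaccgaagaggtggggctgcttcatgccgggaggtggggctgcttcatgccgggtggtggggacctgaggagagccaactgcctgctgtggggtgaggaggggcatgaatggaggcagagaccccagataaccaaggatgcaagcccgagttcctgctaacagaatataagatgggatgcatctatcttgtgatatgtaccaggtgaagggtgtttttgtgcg

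In the window of Cdkn1a, a textbook p53 target, the match began 201 bases before the start. The window of Cdkn2c held a match that began 11 bases before the start, and that of Cdkn2d one that began 179 bases before it. A p53 half-site was found on either strand in 7.89% of the 27457 windows of the same length. The E2F element (TTTCCCGC, TTTCGCGC, TTTGCCGC or TTTGGCGC, in 2.25% of all windows) and the FoxO element TGTTTAC (3.76%) matched in none of the 7 members' windows, and the cAMP-response element TGACGTCA (1.91%) matched in that of Cdkn2b alone. The GC box GGGCGG, present in 34.9% of all windows, was found once in the window of Cdkn2c and not in that of Cdkn1a. It also matched in the windows of Ccnd3, Cdkn1b, Cdkn2a, Cdkn2b and Cdkn2d, so that Cdkn1a alone of the 7 lacked it. The CCAAT box (37.7% of all windows) matched in those of Ccnd3 and Cdkn1b. Both strands were searched, and none of these matches is evidence of binding.

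Among the D-type cyclins, Ccnd2 (ENSRNOG00000057710) changed most. Its level was 17.5 and 15.3 CPM in the neonatal libraries and 37.5 and 44.0 CPM in the adult libraries. In CPM every adult library was more than 2-fold above either neonatal library, and the gap between ages was larger than that between libraries of an age. The log2 fold change was -1.07 (standard error 0.12, 95% interval -1.34 to -0.79, edgeR adjusted p = 9.6e-05). In bulk RNA, fewer cells of a type and less RNA per cell cannot be told apart, here and for every gene below.

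Ccnd1 (ENSRNOG00000020918), the cyclin that many growth factors induce, had 95.8 and 98.4 CPM in neonates and 131 and 136 CPM in adults. The ages were apart and the libraries of an age close together, but the step was small. Its log2 fold change was -0.22 (standard error 0.072, 95% interval -0.38 to -0.05, edgeR adjusted p = 0.026). Leaving out any 1 of the 4 libraries kept the estimate between -0.23 and -0.20 but ended the call, with edgeR adjusted p from 0.056 without adult replicate 1 to 0.11 without neonate replicate 2. Scaled by library totals alone it was -0.46.

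Ccnd3 (ENSRNOG00000050258) was read at 180 and 159 CPM in neonates and at 177 and 168 CPM in adults. In CPM the ages overlapped. TMM raised the neonatal and lowered the adult values, to 200.1 and 170 against 164 and 153 normalized CPM, and the log2 fold change was then 0.22 (95% interval 0.01 to 0.43), which did not pass (edgeR adjusted p = 0.063). It was -0.02 (edgeR adjusted p = 0.83) when libraries were scaled by their totals alone, and 0.10 without neonate replicate 1 but 0.34 (edgeR adjusted p = 0.015) without neonate replicate 2. With the replicate number as a block it passed, at 0.22 (edgeR adjusted p = 0.019).

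A ratio of 2 genes within a library does not depend on how libraries are scaled, so the balance among the cyclins was also compared this way. The log2 ratio of Ccnd1 to Ccnd2 counts was 2.45 and 2.69 in neonates and 1.81 and 1.63 in adults, a shift of 0.85 or 1.80-fold toward Ccnd1 in neonates. Relative to Ccnd3, Ccnd2 stood at -3.36 and -3.38 in neonates and -2.24 and -1.93 in adults, so that the ratio was 2.44-fold larger in adults. The log2 ratio of Ccnd1 to Ccnd3 was -0.91 and -0.69 in neonates and -0.43 and -0.30 in adults, 1.35-fold larger in adults. In these 3 ratios the ages did not overlap. Differences between genes in level are not read from them, because gene lengths were not at hand.

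Of the Cip/Kip inhibitors, Cdkn1a (ENSRNOG00000000521), which encodes p21, had 9.98 and 10.4 CPM in neonates and 20.0 and 21.4 CPM in adults. The ages were far apart beside the small difference between libraries of an age. The log2 fold change was -0.78 (standard error 0.13, 95% interval -1.07 to -0.48, edgeR adjusted p = 0.00081), and it stayed past the threshold in all 13 alternatives, the highest adjusted p being 0.0083, from edgeR without adult replicate 2. Scaled by library totals alone, the difference was -1.02 and so past 2-fold.

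Cdkn1b (ENSRNOG00000007249), which encodes p27, a brake that is regulated largely through degradation of its protein, had 112 and 134 CPM in neonates and 148 and 140.2 CPM in adults. After TMM the 4 values were 125, 144, 138 and 128 and overlapped. The log2 fold change was 0.02 (95% interval -0.19 to 0.22, edgeR adjusted p = 0.88). Scaled by totals alone it was -0.23 (edgeR adjusted p = 0.077), and it passed in none of the 13 alternatives.

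The log2 ratio of Cdkn1a to Cdkn1b was -3.49 and -3.69 in neonates and -2.89 and -2.71 in adults, 1.73-fold larger in adults and without overlap. The summed D-type cyclins over the sum of Cdkn1a and Cdkn1b gave 1.26 and 0.91 in neonates and 1.04 and 1.11 in adults, where the adult libraries lay between the neonatal ones and the means differed by 0.01. An exact two-sided permutation test gave p = 0.333 for each of the 4 ratios without overlap, which is the smallest that 2 against 2 libraries allow, and p = 1 for this last one. Adjusted over the 5 ratios by Benjamini-Hochberg, these exact values were 0.417 and 1.

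**Figure D2:**
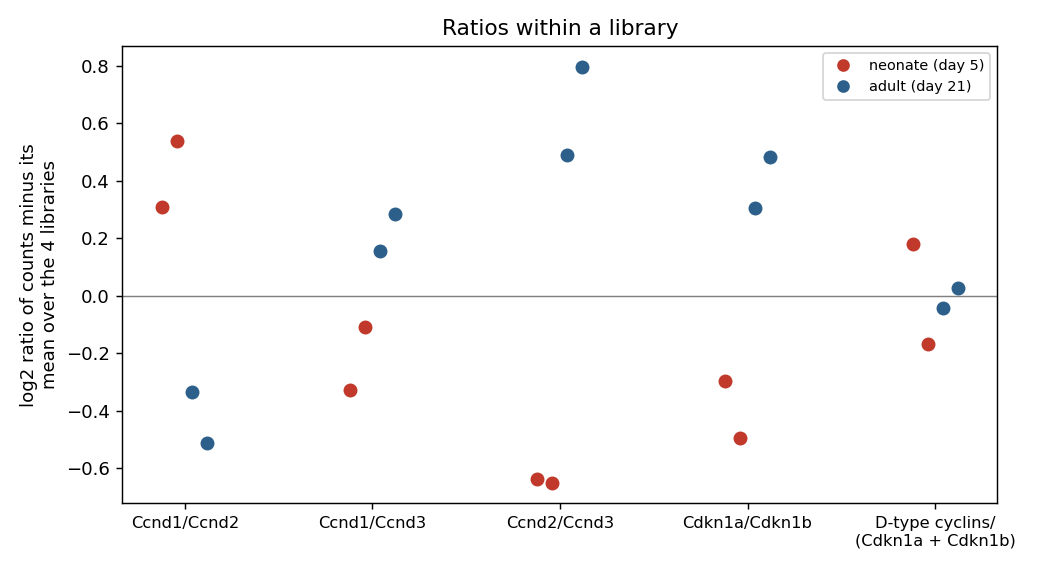
Log2 ratio of counts within each library, drawn as its distance from the mean over the 4 libraries, with neonates in red and adults in blue. The ages were apart in 4 of the 5 ratios, and in the summed ratio the adult values lay between the neonatal ones.

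Of the Ink4 inhibitors, Cdkn2c (ENSRNOG00000008956), which encodes p18, was higher in neonates than in adults. It had 32.8 and 31.6 CPM in neonates and 17.0 and 16.6 CPM in adults. Libraries of an age were nearly equal, and the ages were far apart. The log2 fold change of 1.19 (standard error 0.10, 95% interval 0.95 to 1.42, edgeR adjusted p = 2.3e-05) was the only one of the 7 members toward neonates that passed. It passed in all 13 alternatives and ranged over them from 0.94 with libraries scaled by totals alone, which is under 2-fold, to 1.25.

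Cdkn2b (ENSRNOG00000006735), which encodes p15 and is known as a target of TGF-beta signalling, was low, at 42 and 72 counts in neonates and 112 and 114 in adults, or 1.06, 1.87, 2.96 and 3.14 CPM. The ages did not overlap, but neonate replicates 1 and 2 lay 0.81 apart on the log2 scale, about as much as the ages did. Its log2 fold change was -0.82 (standard error 0.36, 95% interval -1.64 to 0.00, edgeR adjusted p = 0.076). It was -0.49 (edgeR adjusted p = 0.23) without neonate replicate 1 and -1.24 (edgeR adjusted p = 0.013) without neonate replicate 2, so that whether it passed depended on which neonatal library was left out. Scaled by totals alone it passed, at -1.06 (edgeR adjusted p = 0.033).

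Cdkn2a (ENSRNOG00000059837) makes p16 and p19Arf from alternative first exons, which a count per gene cannot separate. It lies near Cdkn2b on chromosome 5 of GRCr8. Its counts were 22 and 14 in neonates and 23 and 20 in adults, or 0.557, 0.364, 0.609 and 0.551 CPM. The exact Poisson 95% interval of the lowest library, 0.199 to 0.610 CPM, overlaps those of the other libraries, and it covers counting error only. Fitted without a filter on low counts, the log2 fold change was -0.11. Its 95% interval, from -1.61 to 1.39, did not exclude a change of 2-fold either way.

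The error from counting alone was taken in the library with the fewest counts of the gene. It was 1.28% for Ccnd3, 4.12% for Ccnd2, 15.4% for Cdkn2b and 26.7% for Cdkn2a. None of the 8 members had fractional counts, which arise where reads fit more than one gene.

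**Figure D3:**
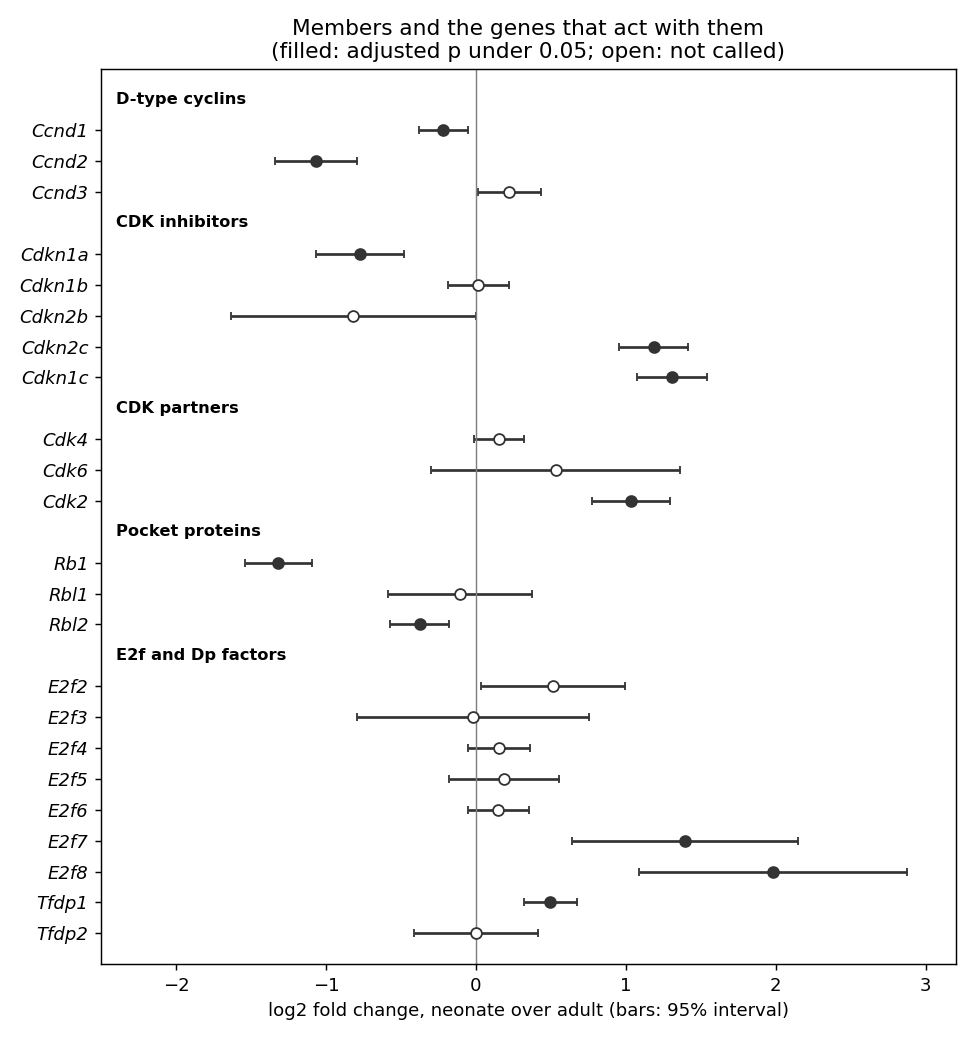
Log2 fold change, neonate over adult, with its 95% interval for the 7 members tested, for Cdkn1c and for the kinases, pocket proteins and E2f factors that act with them. Filled points passed an adjusted p under 0.05, and Cdkn2c, Cdkn1c, Cdk2, E2f7, E2f8 and Tfdp1 lie to the right of 0 among them, with Ccnd1, Ccnd2, Cdkn1a, Rb1 and Rbl2 to the left.

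Cdkn1c, the remaining Cip/Kip gene (p57), which is imprinted and is not among the 9 genes, had 62.8 and 73.1 CPM in neonates and 34.0 and 31.0 CPM in adults. It was higher in neonates by 1.31 on the log2 scale (standard error 0.10, edgeR adjusted p = 1.6e-05). Within the Cip/Kip family, Cdkn1c was thus higher in neonates, Cdkn1a was higher in adults, and Cdkn1b did not pass.

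Of the kinases, Cdk2, the partner of E- and A-type cyclins, had 55.3 and 47.0 CPM in neonates and 28.5 and 30.9 CPM in adults, which gave 1.03 on the log2 scale (standard error 0.11, edgeR adjusted p = 8.1e-05). The partners of the D-type cyclins did not pass. Cdk4 had 111 and 110.3 CPM in neonates and 115 and 121 CPM in adults, with a log2 fold change of 0.15 (edgeR adjusted p = 0.10), and Cdk6, at 1.48 to 2.61 CPM, had 0.53 (edgeR adjusted p = 0.23).

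Of the pocket proteins, which D-type cyclin kinases phosphorylate, 2 of 3 were lower in neonates and none was higher. Beside this and each list count that follows stand the shares of all genes tested, 31.2% higher and 31.1% lower, and a list whose counts are near them differs little from genes at large. Rb1 had 14.1 and 14.4 CPM in neonates and 40.4 and 43.9 CPM in adults, which gave -1.32 on the log2 scale (standard error 0.099, edgeR adjusted p = 1.2e-05). Rbl2 (p130), the pocket protein typical of resting cells, was at -0.37 (edgeR adjusted p = 0.0051), while Rbl1 (p107) was at -0.11 (edgeR adjusted p = 0.68).

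E2f1, Ccnb2 and Bbc3 of the pathway lists are not analysed here. Of the 9 E2f and Dp genes tested, 3 were higher in neonates and none was lower, with a median log2 fold change of 0.19. These were E2f8 (1.98, edgeR adjusted p = 0.0022) and E2f7 (1.40, edgeR adjusted p = 0.0056), both repressors made during S phase, and the partner Tfdp1 (0.50, edgeR adjusted p = 0.00054). E2f8 and E2f7 were low, with adult means of 1.14 and 1.46 CPM. With only genes of a mean of at least 5 CPM tested, 1 gene of this list was higher. E2f2 (0.51), E2f3 (-0.02), E2f4 (0.15), E2f5 (0.19), E2f6 (0.15) and Tfdp2 (-0.0005) did not pass, with edgeR adjusted p from 0.061 to 1.

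**Figure D4:**
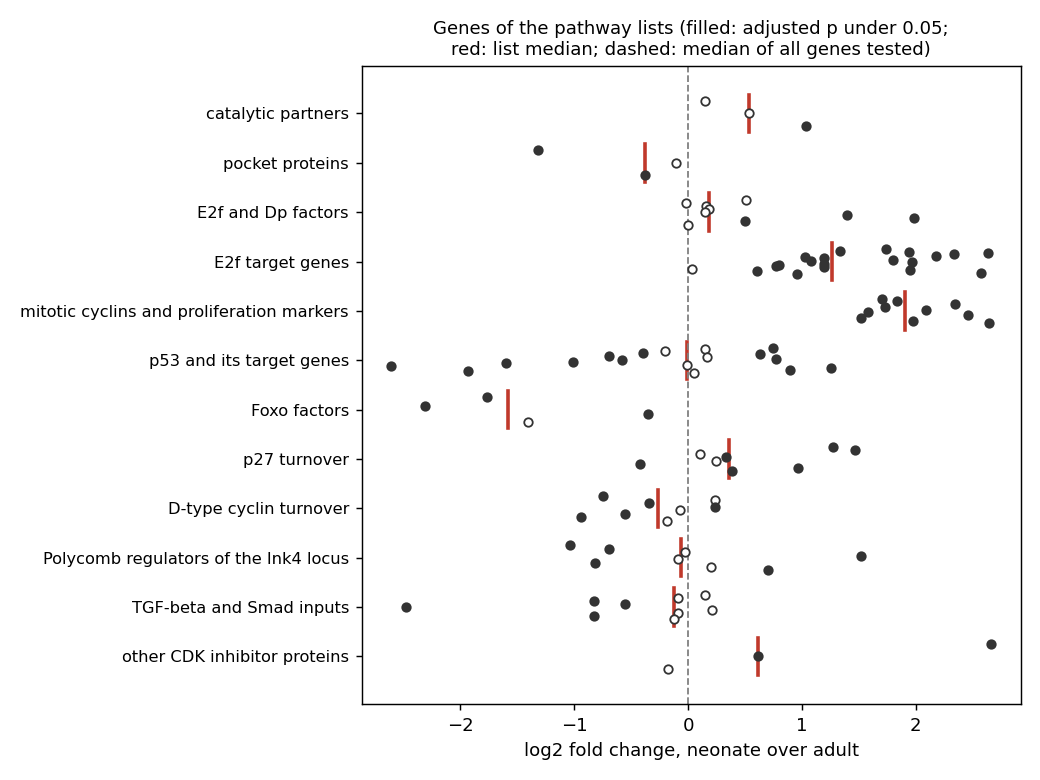
Log2 fold change, neonate over adult, of each gene tested in the pathway lists, with filled points past an adjusted p under 0.05, the list median in red and the median of all genes tested as a dashed line. All E2f targets but Tyms, and all mitotic genes, were called to the right of 0, while the Foxo factors lie to the left.

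Downstream of the pocket proteins, 19 of 20 E2f target genes were higher in neonates and none was lower, with a median log2 fold change of 1.27. The 3 largest were Cdk1 (2.64), Mybl2 (2.57) and Cdc6 (2.34). All 10 mitotic cyclins and proliferation markers tested were higher too, with a median of 1.91, led by Birc5 (2.65), Aurkb (2.46) and Mki67 (2.35). Mki67, the common marker of cycling cells, had 181 and 158 CPM in neonates and 38.4 and 40.6 CPM in adults. Cdk1, Cdc6 and Ccna2, all among the 20, are named in the study for these samples. The study also reported a set of genes enriched in the neonates that it assigned to the cell cycle. The direction of both lists is therefore not independent evidence.

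Of the 17 genes of the p53 list that were tested, 5 were higher in neonates, 7 were lower and 5 did not pass, with a median of -0.01. The 3 with the largest change were all lower in neonates: Tp53inp1 (-2.61), Rrm2b (-1.93), a ribonucleotide reductase subunit, and Zmat3 (-1.60). All 3 were low, with neonatal means of 0.680, 1.25 and 1.14 CPM in that order. The counts of 5 and 7 of 17 lie near the shares of all genes, 31.2% and 31.1%. With only genes of a mean of at least 5 CPM tested, 4 were lower.

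Foxo factors, known activators of Cdkn1a and Cdkn1b transcription, were lower in neonates for 3 of 4, and none was higher. Foxo3 was at -2.31, Foxo1 at -1.76 and Foxo6 at -1.41, the last without passing (edgeR adjusted p = 0.054), and the median was -1.59. Foxo6 passed under limma-voom (-1.63), with library totals alone (-1.64), with the replicate block (-1.54) and without neonate replicate 2 (-2.57), and it was -0.77 without neonate replicate 1. The TGF-beta and Smad list had 4 of 9 lower, not far from the 31.1% of all genes, and none higher, with a median of -0.12, and Tgfbr2 (-2.48), Smad4 (-0.83) and Tgfb3 (-0.82) had the largest changes. Genes of both lists were picked out by the study from these samples, so these counts are not independent evidence.

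Among the genes listed for p27 turnover, 5 of 8 were higher in neonates and 1 was lower (median 0.36). The lower gene was Kpna1 (-0.42), an import receptor gene and not a ligase subunit, named after its values were seen. Cks1b (1.47) and Skp2 (1.28), which together direct the ubiquitin ligase to p27, and Rnf123 (0.96), a subunit of a second p27 ligase, changed most. Of the genes of D-type cyclin turnover, 1 of 8 was higher and 4 were lower (median -0.26), and Gsk3b (-0.94), which phosphorylates cyclin D1, Fbxo4 (-0.75) and Ddb1 (-0.55) changed most. The call of Fbxo4 was lost without adult replicate 1 or 2 or without neonate replicate 1, with edgeR adjusted p of 0.085, 0.11 and 0.067. Without adult replicate 1 only 2 of the 8 were lower. The 1 higher gene, Ambra1, named after its values were seen, was at 0.24 (edgeR adjusted p = 0.029), its CPM overlapped between ages, and its call was lost without any 1 of the 4 libraries, with library totals alone and with no filter on low counts.

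The Polycomb genes, whose products keep the Ink4 locus silent, had 2 of 8 higher in neonates and 3 lower (median -0.06), near the 31.2% and 31.1% of all genes. Ezh2, the histone methyltransferase, was at 1.52, and Bmi1 (-1.04) and Suz12 (-0.82) went the other way. Of the other inhibitor proteins, Cdkn3, a phosphatase of Cdk1 and Cdk2, was at 2.66, Cdk2ap1 at 0.61 and Cdk2ap2 at -0.17 without passing (edgeR adjusted p = 0.16), and thus 2 of 3 were higher.

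The genes whose profile over the 4 libraries lay closest to that of Cdkn2c, by the Euclidean distance of centred log2 CPM among 9916 genes with a mean of at least 10 CPM, were Taf9 (distance 0.025), the replication helicase subunit Mcm6 (0.030) and Cchcr1 (0.041). For Ccnd2 they were Wwtr1 (0.020), Entpd2 (0.026) and Bcl9l (0.037). With 4 libraries at 2 ages, such a likeness rests on little more than a similar fold change.

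**Figure D5:**
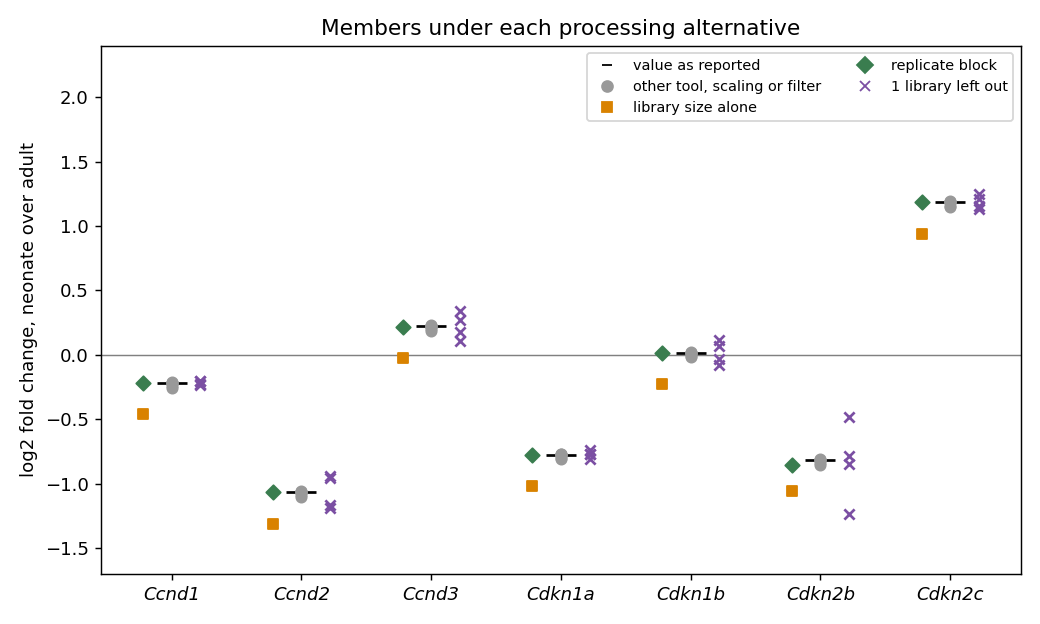
Log2 fold change, neonate over adult, of the 7 members tested as reported (black bar), under other tools, scalings and filters (grey), with library totals alone (orange), with the replicate block (green) and with 1 library left out (purple). Cdkn2c stayed above 0 and Ccnd2, Cdkn1a, Ccnd1 and Cdkn2b stayed below it throughout, while Ccnd3 and Cdkn1b had both signs.

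Markers of the cells in the tissue were summed in CPM, which scales by library totals alone, while genes were called after TMM. TMM raised neonatal and lowered adult values, and the sums were not compared after it. Small gaps between sums, as for glomus cells and endothelium, may therefore not hold under TMM. All 11 glomus cell markers were tested, 4 being higher and 3 lower in neonates, and they summed to 6761 to 7752 CPM in neonates and 8315 to 10454 in adults. Most of that gap came from Epas1, 1 of the 3 lower genes. It had 1568 and 1760 CPM in neonates and 4067 and 2982 CPM in adults, so this sum does not speak for the list as a whole. Pecam1 and Col1a2 are not analysed here. Sums were lower in both neonatal than in both adult libraries for smooth muscle and pericytes (1092 to 1168 against 2142 to 2292, 3 of 6 genes lower and 1 higher), fibroblasts (11665 to 14460 against 17989 to 20194, 3 of 5 lower), endothelium (885 to 951 against 1084 to 1129, 2 of 6 lower and 1 higher), macrophages (81.5 to 93.8 against 151 to 155, 4 of 6 lower and 1 higher), lymphocytes and thymus (6.74 to 10.5 against 13.4 to 15.3, 1 of 2 tested lower and 1 higher) and skeletal muscle (22.8 to 27.8 against 51.2 to 56.6, 1 of 4 tested lower, Myh8 at 0). They were higher in neonates for sympathetic neurons (1563 to 1776 against 901 to 1167, 6 of 6) and erythroid cells (4818 to 7990 against 2107 to 2315, 4 of 4). Glia (1191 to 2300 against 2232 to 2424, 2 of 8 higher and 3 lower) and adipocytes (126 to 174 against 125 to 177, 1 of 4 tested higher and 2 lower) had sums that overlapped between ages. Parathyroid markers reached 1616 CPM in neonate replicate 1 and 197 in neonate replicate 2, and at most 0.0551 in adults, where Pth and Gcm2 were at 0. The part of these cells in the results on the members was not tested.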

How the data were processed

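Poly(A)-selected RNA of whole rat CBs was measured in 4 libraries, 2 per age. The authors deposited estimated counts per gene, with no normalization or filter, from reads trimmed and mapped with STAR to Rnor_6.0 and quantified with Salmon (1.5.2 per the processing notes). Whether counting used strand is not given in the sources used here. Counts were rounded. Of 32883 genes, 636 whose symbol has a non-coding type in RefSeq (GRCr8) were left out, and 13843 that reached 1 CPM in 2 or more libraries were tested by edgeR 4.0.16 (R 4.3.3) with TMM and no covariates. The standard error was derived from the fold change and the quasi-likelihood F. TMM factors were 0.902 and 0.935 in neonates and 1.08 and 1.10 in adults. A level of 3 counts corresponds to 0.0760 to 0.0827 CPM. P-values measure the spread between pools of animals. The procedure was tested on simulated data in which few genes changed. That test does not cover a difference as broad as the one between these ages. Python 3.11.15 with scipy 1.17.1 gave exact tests.

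The members and gene lists were chosen with earlier results of these data known. Named beside the members are all genes of the lists of kinases, pocket proteins, E2f factors and Cip/Kip genes, and the 3 largest changes of every other list. Alternatives were DESeq2 1.42.0, limma-voom (limma 3.58.1), RLE size factors, library totals alone, TMM without mitochondrially encoded genes, no filter, a mean of 5 CPM or more, no removal of non-coding genes, a replicate block, each library left out and, for ratios, 0.5 counts added. The ratio of Cdkn2c to Cdkn2d was not run. The result of 1 marker list is not reported here.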

Additional observations from a re-analysis of the deposited data

How the results depend on the processing

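Of 90 values of the 7 members' log2 fold changes under the alternatives, 82 kept their side of the threshold, and Ccnd2, Cdkn1a, Cdkn1b and Cdkn2c did so in every one run. With 1 library left out, Ccnd1 ran from -0.23 to -0.20 and lost its call each time, Ccnd3 ran from 0.10 to 0.34 and passed without neonate replicate 2, and Cdkn2b ran from -1.24 to -0.49 and passed without neonate replicate 2. An age left with 1 library was assumed to vary like the other. Scaling by library totals alone moved the median of all genes from -0.0029 to -0.25 and the members with it. Cdkn2b passed at -1.06, 0 members were higher and 3 lower by 2-fold, and 2587 genes were higher at an adjusted p under 0.05 in place of 4325. By 2-fold, 704 genes were then higher in place of 1063, which made 21.6% of the calls higher in place of 36.8%. With a mean of at least 5 CPM, 654 genes were higher and 1169 lower by 2-fold, in place of 1063 and 1822, fewer genes (11335) being tested. Leaving out 1 library gave 1 to 2 members higher by adjusted p (2 without neonate replicate 2, with Ccnd3) and 0 to 1 lower by 2-fold (0 without adult replicate 2, when Ccnd2 stood at -0.96; without neonate replicate 2 it stood at -0.94, and the 1 member was Cdkn2b).

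Replicate numbers are shared by the ages, but the replicate difference correlated at -0.02 between them across 13843 genes, so the numbers are not shown to pair the libraries. With a replicate block, Ccnd3 passed at 0.22 and 2 members were higher in place of 1, and the cause was not tested. The block changed no other member's call, and among the named pathway genes Foxo6 (-1.54) and E2f2 (0.50) passed under it. Among pathway lists, library totals alone gave 3 in place of 5 genes of p27 turnover higher and 7 in place of 4 TGF-beta and Smad genes lower. Of 551 values of the 43 named pathway genes, 541 kept their side of the threshold and 0 reversed. Counts limit Cdkn2a and Cdkn2b, which had 14 and 42 in the library where each was lowest.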
